A study of Homo sapiens with 24 samples.

Results

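The genes described are 37 transcriptional targets of p53 listed apart from its cell death targets, among the 14585 genes of the count table. They were chosen by symbol as targets that feed back on p53, repair DNA, act in metabolism and organelles, control growth and signalling, or act in RNA handling and other processes, and all 37 symbols matched a gene of the table. Some of them, such as TRIAP1, AEN and NINJ1, are also known for roles in cell death. RNA was sequenced from A549 cells, a human lung carcinoma line, and from Huh7 cells, a human hepatocellular carcinoma line, to compare how the lines respond to herbal extracts. The 24 libraries formed 8 groups of 3 replicates. In each line these were control cells and cells given an ethanol extract of 1 herb. The herb was P. chinensis, B. chinense or else P. umbellatus. The study describes A549 as wild-type for p53 and Huh7 as carrying a p53 mutation, while the genotype label of every library reads WT. Each line is a single tumour line, so the p53 status cannot be told apart from tissue of origin or any other difference between the lines. The extract dose and treatment time of the sequenced cells, the vehicle of the control cells, and whether replicates came from separate cultures are not given in the sources used here, so p-values measure only the spread between these samples.

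The protein p53 is a transcription factor that is kept low in unstressed cells, because the ubiquitin ligase MDM2 marks it for degradation and its relative MDM4 blocks its activity. When DNA damage or other stress releases p53, it binds response elements made of a pair of decamer half-sites and raises the transcription of its targets. Among them are MDM2 itself, which closes a negative feedback loop, and genes for DNA repair, antioxidant defence, metabolism and growth arrest. Mutations in the DNA-binding domain, frequent in liver and lung tumours, weaken or abolish this binding.

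The libraries summed to between 6803704 and 24345541 estimated counts, with a median of 10515192, and the Huh7 control libraries (16455709 to 24345541) were deeper than those of Huh7 cells treated with P. umbellatus (7182444 to 10328734). Replicate 2 of Huh7 with P. umbellatus stood apart. Its counts differed from those of the other replicates of its group by 13.4 and 17.8 times the sampling variance. The other 22 replicate pairs differed by 2.73 to 5.39 times. In Huh7 with P. umbellatus, log2 fold changes of p53 target genes that were called or are given in full are also given without replicate 2. Counts of the other gene lists in that group are given only with replicate 2. Hepatocyte markers separated the control cells of the lines. ALB was at a mean of 4778 CPM, counts scaled to library size, in Huh7 and 0.04 in A549, and AFP at 2197 and 0.10. Of the markers of lung epithelium, KRT7 was at 1665 CPM in A549 and 0 in Huh7, whereas the surfactant gene SFTPB was near 0 in both (1.28 and 3.24 CPM).

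The promoter sequences of these genes are shown where they hold a match to the p53 response element. The genes were chosen as p53 targets, so a share of matches above that of all genes is not an independent result. RefSeq promoter windows (GRCh38.p14, 250 bases before to 50 bases after a transcript start) were matched to 30 of the 37 genes. No window was matched for FBXO22, GADD45A, ASCC3, TRIM22, TP53INP1, CMBL or PHLDA3. A full match was taken as a pair of p53 half-site consensus decamers with at most 1 base between them, read on both strands. At most 3 mismatches over 20 bases were allowed, and none at the core C or G of either half-site. A full match was found for 8 of the 30 genes (26.7%), against 2.91% of the 27305 genes with a window and 3.18% of the 11758 genes of the count table with one. A single half-site without mismatch, some of which lie inside a full match, was found for 23.3% of the 30 genes and 8.06% of all genes with a window. Below, the matched bases are in capitals and neighbouring bases in lower case, at most 25 on each side and ending at the transcript start where the match does not reach past it, each read 5′ to 3′ on the strand of the gene. No neighbouring bases are given for GDF15, whose match began 28 bases after a start. The DDB2 match also lay inside a transcript but nearer to its start, and only the bases before it are shown.
MDM2: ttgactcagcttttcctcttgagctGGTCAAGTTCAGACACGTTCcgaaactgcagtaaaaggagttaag
DDB2: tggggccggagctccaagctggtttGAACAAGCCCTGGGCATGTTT
AEN: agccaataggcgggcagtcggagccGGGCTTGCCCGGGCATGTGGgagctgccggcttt
SESN1: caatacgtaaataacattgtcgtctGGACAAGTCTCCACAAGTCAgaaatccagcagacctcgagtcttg
RPS27L: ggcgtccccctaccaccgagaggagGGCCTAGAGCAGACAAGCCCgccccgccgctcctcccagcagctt
FDXR: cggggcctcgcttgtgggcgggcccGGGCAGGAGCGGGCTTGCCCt
ABHD4: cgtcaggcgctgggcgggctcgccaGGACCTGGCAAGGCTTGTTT
GDF15: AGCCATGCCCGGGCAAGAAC

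The MDM2 match lay at chr12:68808923-68808942 on the plus strand, inside the span of the gene (chr12:68808177-68845544), 94 and 101 bases before the transcript starts of its overlapping windows. The DDB2 match, at chr11:47214979-47214999, began 5 bases after a start and held no mismatch, with 1 base between the half-sites. The MDM2 and AEN matches held 2 mismatches each, and the matches of the other 5 genes 3 each. The AEN match lay at chr15:88621306-88621325, that of SESN1 at chr6:109009018-109009037 on the minus strand, that of RPS27L at chr15:63157527-63157546 on the minus strand, and that of FDXR at chr17:74872996-74873015 on the minus strand. ABHD4 held its match at chr14:22598284-22598303 and GDF15 at chr19:18386186-18386205, both on the plus strand. A match describes letters in a window and is not evidence of binding, and no match says only that the letters were not found in that window.

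In A549 cells the p53 target genes were up-regulated with each herb. The genes were chosen with earlier results of these data known, so their counts are not an independent test of the group. With P. chinensis, 34 of the 37 were up-regulated and MDM4 was down-regulated, with a median log2 fold change of 1.03, while 15.8% of the 13633 genes tested were up-regulated and 17.1% down-regulated. With B. chinense, 33 were up-regulated and MDM4 was down-regulated, with a median of 0.82, against 13.1% and 15.0% of all genes. With P. umbellatus, 33 were up-regulated and MDM4 was down-regulated, with a median of 0.74, against 13.4% and 14.8%. The median over all genes tested was 0.01, -0.002 and -0.01. Genes were called with edgeR's quasi-likelihood test at a Benjamini-Hochberg adjusted p below 0.05, and the 3 comparisons share the same control libraries.

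**Figure D1:**
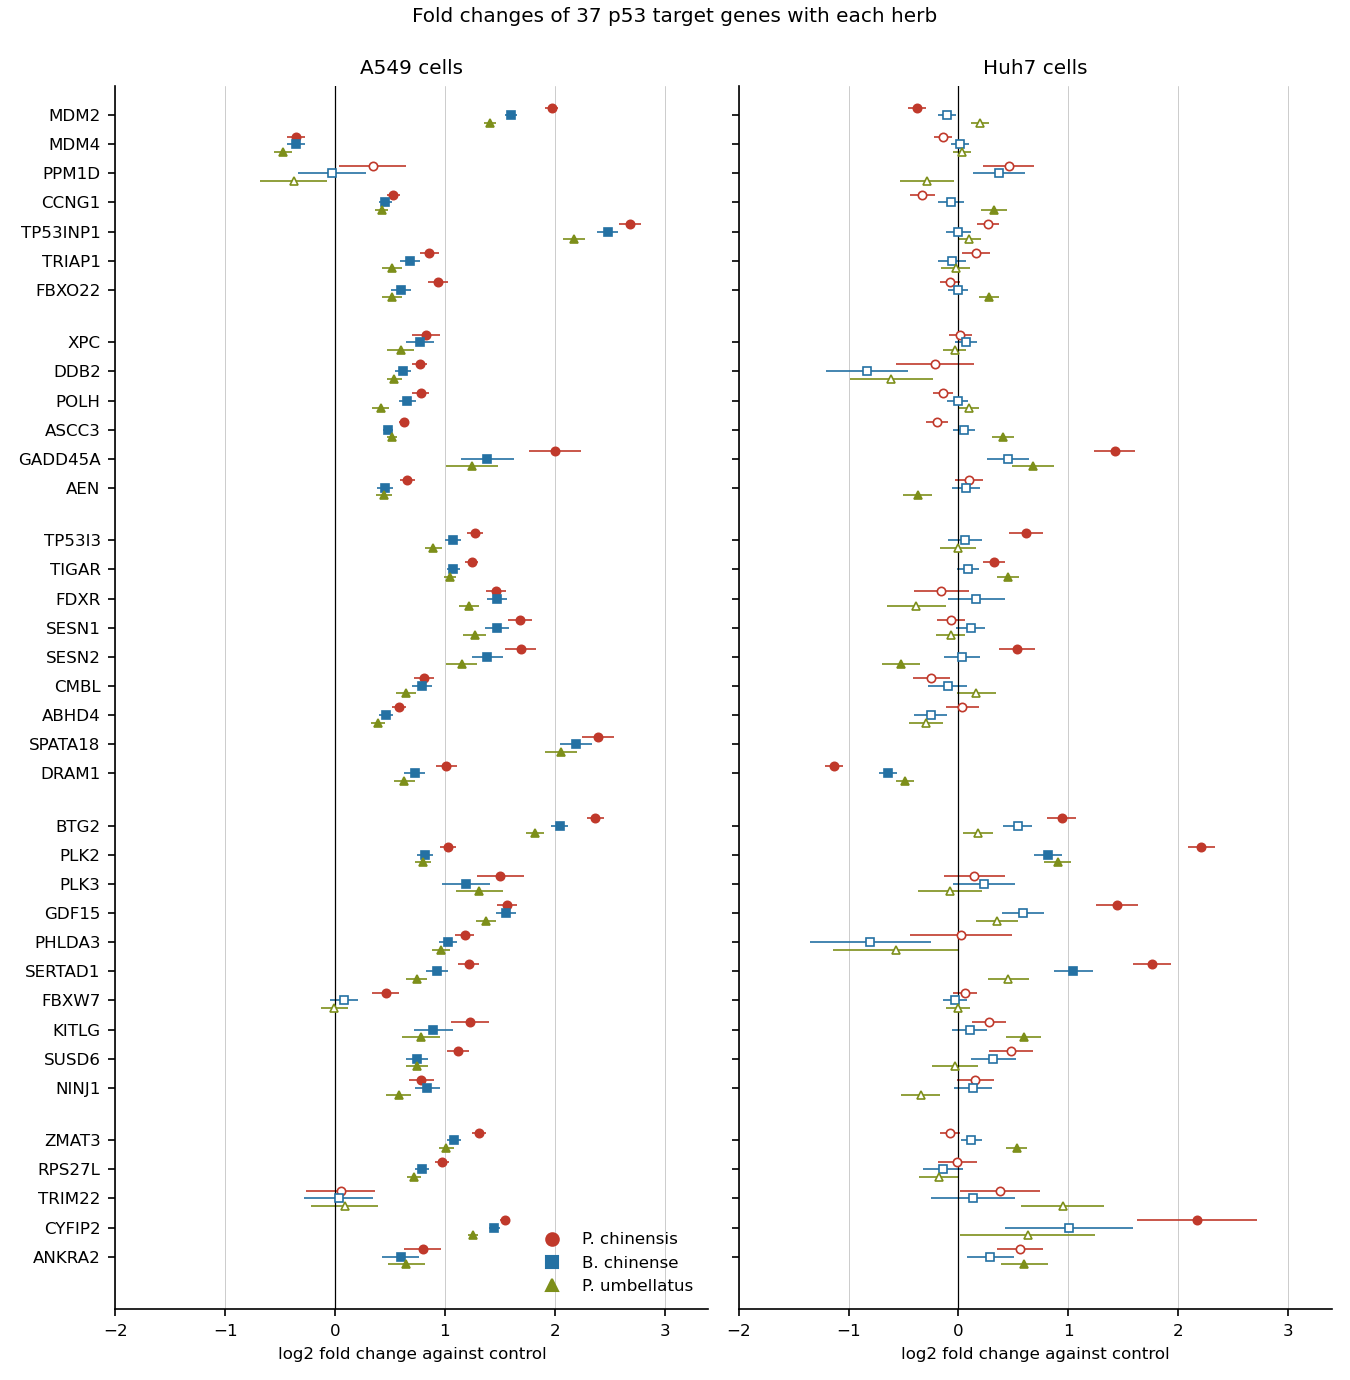
Log2 fold change against control of each of the 37 p53 target genes, in A549 cells (left) and Huh7 cells (right), ordered by role from feedback genes at the top to RNA and other genes at the bottom. Circles are P. chinensis, squares B. chinense and triangles P. umbellatus, filled where the adjusted p was below 0.05 and open otherwise, bars are the standard error, and SPATA18 was not tested in Huh7. In A549 nearly all points lie to the right of 0, with TP53INP1 reaching 2.68, whereas in Huh7 most lie near 0 and DRAM1 and PLK2 lie on opposite sides.

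Of the 7 genes that feed back on p53, 5 were up-regulated in A549 with each herb. In A549 cells MDM2 was at 271, 279.7 and 272 CPM in the control libraries, at 1105, 1056 and 1139 with P. chinensis, at 939, 847 and 779 with B. chinense, and at 741, 785 and 760.3 with P. umbellatus. All 9 treated libraries lay above the 3 control libraries, those with P. chinensis were the highest, and the ranges with B. chinense and P. umbellatus overlapped. This was a 3.92-fold rise with P. chinensis (log2 fold change 1.97 ± 0.06 SE, adjusted p = 5.51e-11), a 3.03-fold rise with B. chinense (1.601 ± 0.06, adjusted p = 4.54e-10) and a 2.66-fold rise with P. umbellatus (1.41 ± 0.06, adjusted p = 1.89e-09).

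TP53INP1 (chr8:94925972-94949378, minus strand) encodes a stress-induced protein that promotes p53 phosphorylation and autophagy. It was at 11.8, 9.81 and 11.1 CPM in the A549 control libraries, at 68.3, 79.0 and 70.1 with P. chinensis, at 64.8, 66.2 and 58.6 with B. chinense, and at 49.2, 54.2 and 52.8 with P. umbellatus. The 4 groups did not overlap. Its log2 fold changes of 2.68 ± 0.10, 2.48 ± 0.10 and 2.18 ± 0.10 in the same herb order were the largest of the 37 genes with each herb (adjusted p = 2.37e-10, 8.87e-10 and 3.28e-09).

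The other feedback genes changed less. TRIAP1, which restrains caspase activation, rose by 0.86, 0.68 and 0.52 on the log2 scale, in the herb order used above. FBXO22, an F-box protein of a ubiquitin ligase that acts on p53 complexes, rose by 0.94, 0.60 and 0.52, and the cyclin CCNG1 by 0.53, 0.46 and 0.42. MDM4 fell by 0.35, 0.35 and 0.47, and it was the member of the group that moved against the others. The phosphatase gene PPM1D, whose product dephosphorylates p53, did not pass the test with any herb. Its log2 fold changes were 0.34 ± 0.30, -0.025 ± 0.31 and -0.38 ± 0.31, and the first turned to -0.093 without P. chinensis replicate 1. The second turned to 0.22, 0.022 and 0.16 without B. chinense replicate 1, B. chinense replicate 3 and control replicate 2.

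All 6 DNA repair and damage genes were up-regulated in A549 with each herb, with medians of 0.78, 0.64 and 0.53 in the same herb order. XPC and DDB2, which recognise damage in nucleotide excision repair, rose by 0.83 and 0.77 with P. chinensis, and POLH, a polymerase that copies past damage, by 0.78. ASCC3, a helicase in repair of alkylated DNA, and AEN, an exonuclease, rose by 0.63 and 0.66. GADD45A (chr1:67685201-67688334), a stress sensor that binds PCNA and CDK1, was at 5.10, 4.22 and 4.04 CPM in control, at 14.1, 17.5 and 24.4 with P. chinensis, at 11.3, 14.7 and 10.6 with B. chinense, and at 13.5, 11.5 and 8.52 with P. umbellatus. All its treated libraries lay above control but spread widely within a group, and its log2 fold changes were 2.003 ± 0.24, 1.39 ± 0.24 and 1.25 ± 0.24 (adjusted p = 1.37e-05, 5.73e-04 and 0.00115).

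All 9 genes of metabolism, redox and organelles were up-regulated in A549 with each herb, with medians of 1.27, 1.08 and 1.05. SPATA18 (chr4:52051304-52097299), which acts in the removal of damaged mitochondria, was at 5.85, 3.93 and 5.49 CPM in control, at 27.8, 29.1 and 27.5 with P. chinensis, at 23.4, 23.1 and 27.3 with B. chinense, and at 22.6, 24.2 and 21.1 with P. umbellatus. The treated libraries were far above control with each herb, and the ranges with B. chinense and P. umbellatus overlapped. Its log2 fold changes were 2.40 ± 0.14, 2.197 ± 0.15 and 2.06 ± 0.14 (adjusted p = 1.71e-08, 9.99e-08 and 1.45e-07).

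The sestrins, which limit oxidative stress and mTORC1 activity, rose together. SESN1 rose by 1.68, 1.48 and 1.27 on the log2 scale. SESN2 (chr1:28259518-28282491) was at 6.10, 6.09 and 7.31 CPM in control, at 22.4, 21.0 and 22.4 with P. chinensis, at 16.8, 16.8 and 20.1 with B. chinense, and at 13.8, 16.3 and 16.2 with P. umbellatus. The 4 groups of SESN2 did not overlap and its log2 fold changes were 1.69 ± 0.14, 1.39 ± 0.14 and 1.15 ± 0.14 (adjusted p = 3.75e-07, 5.30e-06 and 2.57e-05). FDXR, the reductase that supplies electrons to mitochondrial cytochrome P450 enzymes, rose by 1.47, 1.48 and 1.22, and TIGAR, a phosphatase that slows glycolysis, by 1.25, 1.08 and 1.05. The quinone oxidoreductase gene TP53I3 rose by 1.27, 1.07 and 0.90. DRAM1, a lysosomal membrane protein of autophagy, rose by 1.01, 0.72 and 0.63. The hydrolase gene CMBL rose by 0.81, 0.79 and 0.65, and the lipase gene ABHD4 by 0.58, 0.46 and 0.39.

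Of the 10 growth control and signalling genes, 10 were up-regulated with P. chinensis and 9 with each of the other herbs, with medians of 1.199, 0.91 and 0.80. BTG2 (chr1:203305491-203309602), an antiproliferative regulator of mRNA deadenylation, was at 14.6, 14.7 and 15.0 CPM in the A549 control libraries, at 80.8, 73.1 and 82.3 with P. chinensis, at 66.8, 62.2 and 60.5 with B. chinense, and at 54.6, 54.3 and 56.2 with P. umbellatus. Its 4 groups did not overlap, and the log2 fold changes were 2.37 ± 0.08, 2.04 ± 0.08 and 1.82 ± 0.08 (adjusted p = 9.57e-11, 8.87e-10 and 2.76e-09).

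GDF15, a secreted stress cytokine, rose by 1.56, 1.56 and 1.37 on the log2 scale in A549. PLK3, a stress-response kinase, rose by 1.504, 1.19 and 1.31, and its relative PLK2 by 1.03, 0.82 and 0.80. PHLDA3, which blocks membrane recruitment of AKT, rose by 1.18, 1.03 and 0.96. SERTAD1, a regulator of CDK4 and E2F, rose by 1.22, 0.93 and 0.74, and KITLG, the ligand of the KIT receptor, by 1.23, 0.90 and 0.79. SUSD6, a membrane protein, rose by 1.12, 0.75 and 0.75, and NINJ1, which acts in plasma membrane rupture, by 0.78, 0.84 and 0.58. FBXW7, the substrate receptor of a ubiquitin ligase that degrades cyclin E and MYC, passed the test with P. chinensis alone (0.46, adjusted p = 0.00915), and leaving out replicate 3 of P. chinensis ended this call (0.35, adjusted p = 0.0548). Its values with the other herbs were 0.08 and -0.005.

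Of the 5 RNA, ribosome and other genes, 4 were up-regulated with each herb. CYFIP2, a subunit of the WAVE actin-regulating complex, rose by 1.55, 1.45 and 1.26. ZMAT3, an RNA-binding protein that affects splicing, rose by 1.31, 1.08 and 1.01. RPS27L, a ribosomal protein paralog, rose by 0.98, 0.79 and 0.72. How kallisto divided reads between it and the closely similar RPS27 was not tested. ANKRA2, an ankyrin repeat adaptor, rose by 0.80, 0.60 and 0.65, and its call with B. chinense was lost without replicate 1 (adjusted p = 0.0566) or replicate 2 (adjusted p = 0.0576) of that herb. The interferon-inducible TRIM22 did not pass the test, with log2 fold changes of 0.05 ± 0.31, 0.03 ± 0.31 and 0.09 ± 0.31.

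**Figure D2:**
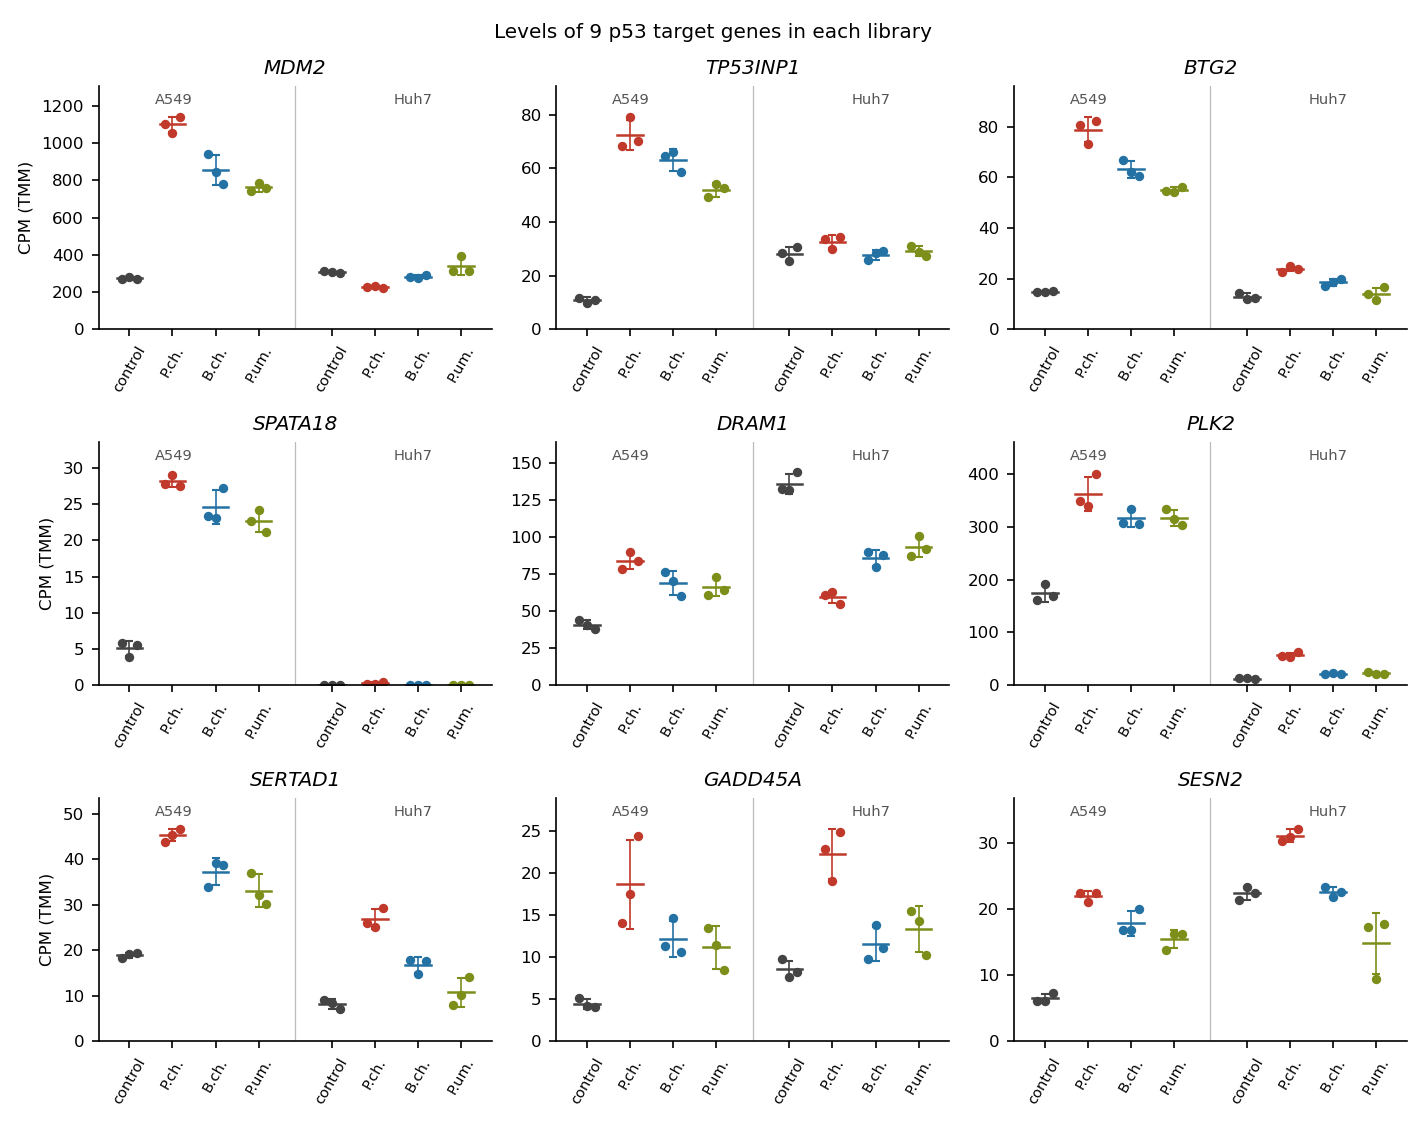
Level in CPM of 9 p53 target genes in each of the 24 libraries, with A549 groups to the left of the grey line and Huh7 groups to the right (P.ch. is P. chinensis, B.ch. B. chinense and P.um. P. umbellatus). Points are libraries, horizontal lines the mean and error bars the SD of 3 replicates. MDM2, TP53INP1, BTG2 and SPATA18 stand highest with P. chinensis in A549. In Huh7 with P. chinensis MDM2 falls, BTG2 rises by less than in A549, TP53INP1 overlaps control and SPATA18 stays near 0, while DRAM1 rises in A549 and falls in Huh7.

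In Huh7 cells fewer p53 target genes were called with each herb than in A549. Those called with at least 1 herb came from each of the roles, with PLK2, BTG2, GDF15, SERTAD1 and KITLG among the growth control genes. SPATA18 was at 0 counts in 9 Huh7 libraries and at 6, 4 and 6 counts in the 3 with P. chinensis, below the limit of a mean above 5, so 36 genes were tested. With P. chinensis, 9 were up-regulated and 2 down-regulated (median log2 fold change 0.12), against 10.5% in each direction of the 13875 genes tested. With B. chinense, 2 were up-regulated and 1 was down-regulated (median 0.07), against 0.519% and 0.757%. With P. umbellatus, 9 were up-regulated and 3 down-regulated (median 0.06), against 19.3% and 17.8% of all genes. These comparisons again share their control libraries.

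**Figure D3:**
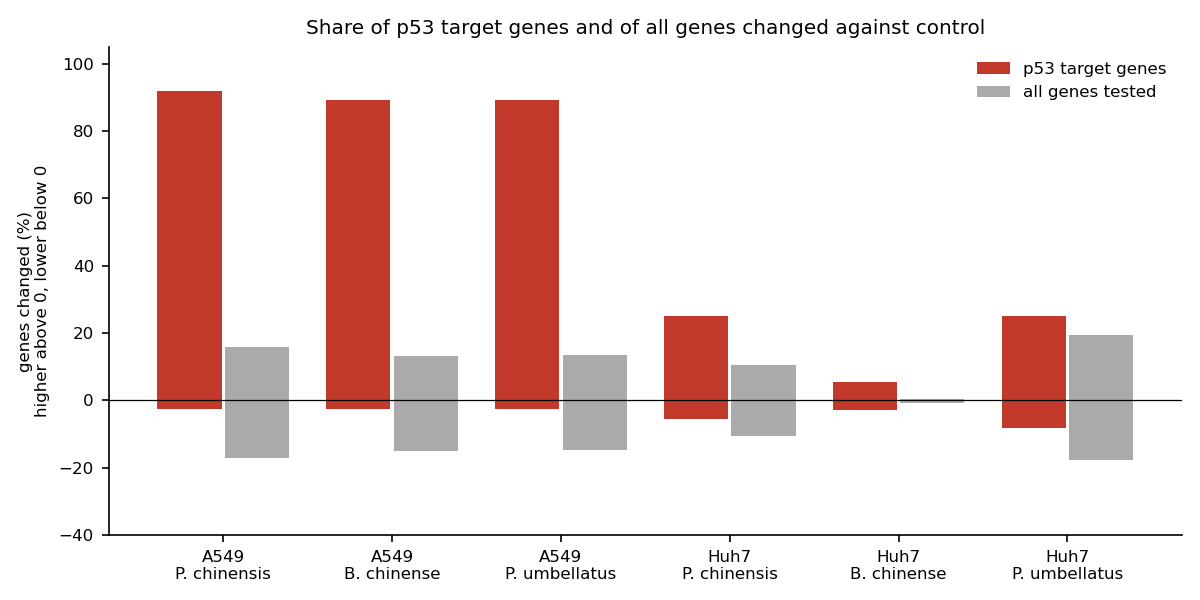
Share of the p53 target genes (red) and of all genes tested (grey) that were up-regulated (above 0) or down-regulated (below 0) at an adjusted p below 0.05, in percent, for each line and herb. In A549 the up-regulated share of the p53 target genes is near 90% with each herb, against 13.1% to 15.8% of all genes, while in Huh7 it is 25%, 5.6% and 25%, against 10.5%, 0.519% and 19.3%.

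The Huh7 counts moved with single libraries. The 9 up-regulated with P. chinensis became 5 without control replicate 2 or 3, and 13 up and 5 down without replicate 2 of P. umbellatus, which sits in the shared fit. The 2 up-regulated with B. chinense became 1 without B. chinense replicate 1 or 3 or control replicate 2, 0 without control replicate 3, and 4 without replicate 2 of P. umbellatus. The 9 up-regulated with P. umbellatus became 4 without control replicate 2, 5 without control replicate 3 and 7 without replicate 2 of P. umbellatus, and the 3 down-regulated became 1 without any single control library. The genes that kept their call when any single library was left out were 7 of 11 with P. chinensis, 1 of 3 with B. chinense (DRAM1) and 5 of 12 with P. umbellatus. The 7 were MDM2, GADD45A, DRAM1, BTG2, PLK2, GDF15 and SERTAD1, and the 5 were ASCC3, TIGAR, DRAM1, PLK2 and ZMAT3.

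Among the Huh7 feedback genes, MDM2 moved against its A549 response with P. chinensis. It was at 312, 308 and 303 CPM in the Huh7 control libraries, at 226, 232 and 223 with P. chinensis, at 280.2, 277 and 292 with B. chinense, and at 313, 394 and 313 with P. umbellatus. The libraries with P. chinensis lay below control, and replicate 2 of P. umbellatus lay above all others. MDM2 fell by 0.38 ± 0.08 with P. chinensis (adjusted p = 0.00637), while its log2 fold changes were -0.10 ± 0.08 with B. chinense (adjusted p = 0.719) and 0.20 ± 0.08 with P. umbellatus (adjusted p = 0.0785). The last value was 0.077 without replicate 2 of P. umbellatus (adjusted p = 0.171), and 0.25 and 0.26 without replicates 1 and 3 (adjusted p = 0.0471 and 0.0183), and -0.031 with an offset for GC content and transcript length in each library. TP53INP1, the gene with the largest rise in A549, was at 25.3 to 30.7 CPM in the Huh7 control libraries and at 25.8 to 34.4 in the treated ones, which overlapped. Its log2 fold changes were 0.27 ± 0.10, 0.00 ± 0.11 and 0.10 ± 0.11 (adjusted p = 0.0894, 1 and 0.492), the last 0.097 without replicate 2 of P. umbellatus. MDM4, PPM1D and TRIAP1 were called with no herb, and CCNG1 and FBXO22 were called with P. umbellatus alone (0.33 and 0.28), calls that did not hold without its replicate 2 (0.16 and 0.19, adjusted p = 0.132 and 0.0823) or with an offset for GC content and transcript length (0.2 and 0.106, adjusted p = 0.0802 and 0.278).

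PLK2 (chr5:58453982-58460139, minus strand), a kinase also known as a serum-inducible gene, rose in Huh7 with each herb. It was at 12.8, 13.8 and 11.4 CPM in control, at 55.1, 52.7 and 62.3 with P. chinensis, at 20.6, 24.01 and 21.5 with B. chinense, and at 25.9, 22.1 and 20.6 with P. umbellatus. No treated library overlapped control. The rise was 4.63-fold with P. chinensis (log2 fold change 2.21 ± 0.12, adjusted p = 4.53e-07), 1.76-fold with B. chinense (0.81 ± 0.13, adjusted p = 0.0074) and 1.87-fold with P. umbellatus (0.90 ± 0.13, adjusted p = 7.75e-04, and 0.921 without replicate 2). The call with B. chinense was lost without control replicate 3 (0.74, adjusted p = 0.0585) and held without replicate 2 of P. umbellatus in the shared fit (0.817, adjusted p = 0.00201).

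SERTAD1 (chr19:40421589-40425992, minus strand) was at 9.0, 8.45 and 7.01 CPM in Huh7 control, at 25.9, 25.2 and 29.3 with P. chinensis, at 17.9, 14.7 and 17.6 with B. chinense, and at 7.97, 10.1 and 14.1 with P. umbellatus. The libraries with P. chinensis and B. chinense lay above control and those with P. umbellatus overlapped it. It rose by 1.76 ± 0.17 with P. chinensis (adjusted p = 2.80e-05) and by 1.04 ± 0.18 with B. chinense (adjusted p = 0.0124), the latter lost without B. chinense replicate 1 or 3 or control replicate 2 or 3 (adjusted p from 0.0596 to 0.0886). SERTAD1 with B. chinense passed without replicate 2 of P. umbellatus in the shared fit (1.046, adjusted p = 0.00428). Its log2 fold change with P. umbellatus was 0.46 ± 0.18 (adjusted p = 0.0679, and 0.495 with adjusted p = 0.0778 without replicate 2).

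The other growth control genes called in Huh7 were BTG2, GDF15 and KITLG. BTG2 was at 14.4, 12.1 and 12.3 CPM in control, at 22.8, 24.9 and 23.96 with P. chinensis, at 17.1, 18.7 and 19.9 with B. chinense, and at 14.0, 11.5 and 16.5 with P. umbellatus. Its libraries with P. chinensis and B. chinense lay above control, but only the former passed the test (0.94 ± 0.13, adjusted p = 3.22e-04, against 0.54 ± 0.13, adjusted p = 0.075). With P. umbellatus its log2 fold change was 0.18 (adjusted p = 0.327), or 0.29 without replicate 2 (adjusted p = 0.0923). GDF15 rose by 1.44 ± 0.19 with P. chinensis (adjusted p = 2.29e-04). With P. umbellatus GDF15 was not called, but it rose by 0.605 without replicate 2 of that herb (adjusted p = 2.06e-04). KITLG rose by 0.59 with P. umbellatus (0.315 without its replicate 2). The KITLG call was lost without control replicate 2 (adjusted p = 0.0505), and its value was lower at 0.326 with the GC and length offset. PHLDA3, SUSD6, NINJ1, PLK3 and FBXW7 passed with no herb in Huh7, their largest value being the -0.80 ± 0.55 of PHLDA3 with B. chinense.

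GADD45A, of the repair and damage genes, was at 9.75, 7.7 and 8.22 CPM in Huh7 control, at 22.9, 19.1 and 24.96 with P. chinensis, at 9.77, 13.8 and 11.1 with B. chinense, and at 15.5, 14.3 and 10.2 with P. umbellatus. No treated library lay below the highest control library, and those with P. chinensis were the highest. It rose by 1.42 ± 0.18 with P. chinensis (adjusted p = 2.12e-04) and by 0.68 ± 0.19 with P. umbellatus (adjusted p = 0.0171, and 0.62 with adjusted p = 0.0393 without replicate 2). The latter call was lost without P. umbellatus replicate 1 or control replicate 2 or 3 (adjusted p from 0.0558 to 0.072).

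AEN was at 54.7, 54.9 and 54.9 CPM in Huh7 control, at 55.6, 59.6 and 53.5 with P. chinensis, at 56.8, 56.7 and 57.1 with B. chinense, and at 42.0, 30.0 and 49.7 with P. umbellatus. The libraries with P. umbellatus lay below control and its replicate 2 was the lowest. AEN fell by 0.37 ± 0.13 with P. umbellatus (adjusted p = 0.0407), by 0.205 without that replicate (adjusted p = 0.0487), and did not pass without replicate 1 of P. umbellatus or any single control library (adjusted p from 0.0576 to 0.0922). With the GC and length offset the direction turned (0.24, adjusted p = 0.018). ASCC3 rose by 0.41 with P. umbellatus (0.26 without replicate 2), a call that ended with the offset (0.115, adjusted p = 0.116), while XPC, DDB2 and POLH passed with no herb.

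DRAM1 (chr12:101877580-102012130) fell in Huh7 with each herb, against its rise in A549. In Huh7 it was at 132, 132 and 144 CPM in control, at 60.9, 62.8 and 54.9 with P. chinensis, at 90.1, 80.1 and 88.0 with B. chinense, and at 87.5, 101 and 92.0 with P. umbellatus. No treated library reached the control range. It fell by 1.13 ± 0.08 with P. chinensis (adjusted p = 2.35e-06), by 0.64 ± 0.08 with B. chinense (adjusted p = 0.00243) and by 0.49 ± 0.08 with P. umbellatus (adjusted p = 0.00167, and 0.55 without replicate 2). In A549 it went from 44.1, 40.6 and 37.9 CPM in control to 78.6, 90.2 and 83.9 with P. chinensis, to 76.5, 70.5 and 60.6 with B. chinense, and to 61.3, 72.9 and 64.4 with P. umbellatus.

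SESN2 was at 21.4, 23.3 and 22.4 CPM in Huh7 control, at 30.3, 30.9 and 32.1 with P. chinensis, at 23.4, 21.8 and 22.6 with B. chinense, and at 17.2, 9.45 and 17.8 with P. umbellatus. The libraries with P. chinensis lay above control and those with P. umbellatus below it. It rose by 0.53 ± 0.16 with P. chinensis (adjusted p = 0.0362), a call lost when any single library of either group was left out (adjusted p from 0.096 to 0.116). The call held when replicate 2 of P. umbellatus was left out of the shared fit (0.531, adjusted p = 1.5e-04). With P. umbellatus it fell by 0.52 ± 0.17 (adjusted p = 0.0323), by 0.30 without replicate 2 (adjusted p = 0.0223), and did not pass without any single control library (adjusted p from 0.0602 to 0.0801) or with the GC and length offset (-0.049, adjusted p = 0.835). TIGAR rose by 0.32 with P. chinensis and by 0.45 with P. umbellatus (0.34 without replicate 2 and 0.233 with the offset), the former lost without any single library of either group. TP53I3 rose by 0.62 with P. chinensis, lost without P. chinensis replicate 2 or control replicate 2 or 3. Without replicate 2 of P. umbellatus in the fit, TIGAR and TP53I3 passed with P. chinensis (adjusted p = 0.00334 and 0.00166). FDXR, SESN1, CMBL and ABHD4 passed with no herb.

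Of the RNA and other genes, CYFIP2 (chr5:157266079-157395595) was barely detected in Huh7, at 6, 1 and 4 counts in control, at 42, 33 and 9 with P. chinensis, at 6, 8 and 2 with B. chinense, and at 6, 0 and 3 with P. umbellatus. In CPM this was 0.30, 0.06 and 0.17 in control and 1.63, 1.35 and 0.65 with P. chinensis, without overlap. Its log2 fold change of 2.17 ± 0.55 with P. chinensis (adjusted p = 0.014) was lost without P. chinensis replicate 1 or control replicate 2 or 3 (adjusted p from 0.0601 to 0.062). It passed without replicate 2 of P. umbellatus in the shared fit (2.19, adjusted p = 0.0038). ANKRA2 (chr5:73552190-73565667, minus strand) was at 6.57, 6.77 and 5.03 CPM in control, at 9.08, 8.17 and 8.82 with P. chinensis, at 5.82, 8.42 and 7.89 with B. chinense, and at 6.21, 11.3 and 9.55 with P. umbellatus. The libraries with P. umbellatus overlapped control, and the rise by 0.60 ± 0.22 (adjusted p = 0.0464) was not called without replicate 2 (0.42, adjusted p = 0.16), replicate 3 or any single control library, or with the offset (0.432, adjusted p = 0.13). ZMAT3 rose by 0.53 with P. umbellatus (0.45 without replicate 2), and RPS27L and TRIM22 passed with no herb.

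Other gene lists were read beside these changes. Of 14 immediate early genes tested in Huh7, such as FOSB and DUSP1, 12 were up-regulated and none down-regulated with P. chinensis (median log2 fold change 1.27, FOSB 3.27, DUSP1 2.18). The counts up and down in Huh7 were 4 and 0 for B. chinense and 6 and 2 for P. umbellatus. In A549 the same list gave 6 and 1, 5 and 4, and 4 and 5. The shares of all genes up and down in Huh7 were 10.5% and 10.5%, 0.519% and 0.757%, and 19.3% and 17.8% in the same herb order. In A549 they were 15.8% and 17.1%, 13.1% and 15.0%, and 13.4% and 14.8%. Of 15 ATF4 response genes, which include the serine synthesis enzyme PHGDH, 3 rose and 8 fell in Huh7 with P. chinensis, 0 and 5 with B. chinense, then 2 and 8 with P. umbellatus. In A549 the ATF4 list gave 4 and 6, 3 and 7, and 3 and 6 in the same herb order. PLK2, BTG2 and GADD45A are also known as early response genes and SESN2 as an ATF4 target, and the part of these lists in the changes of the p53 targets was not tested. In bulk RNA, fewer cells of a kind and less RNA per cell cannot be told apart.

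The response of each gene was then compared between the lines as the log2 fold change in A549 minus that in Huh7, in a fit of all 24 libraries. With P. chinensis the response of 28 of 36 genes differed (19.6% of the genes tested), 25 with B. chinense (11.6%) and 24 with P. umbellatus (34.4%). For P. chinensis the response of 27 of 36 genes was higher in A549 and that of PLK2 lower (median difference 0.89), against 10.3% higher and 9.30% lower of the 12924 genes tested in both lines. With B. chinense 25 were higher and none lower (median 0.81), against 5.80% in each direction. With P. umbellatus 23 were higher and MDM4 was lower (median 0.73), against 19.1% and 15.3%. The count of 23 ran from 21 to 25 with 1 library left out, and the median was 0.62 without replicate 2 of Huh7. MDM4 differed by -0.42 (adjusted p = 0.0101), by -0.556 without replicate 2 of Huh7 with P. umbellatus, and did not pass with the GC and length offset (-0.236, adjusted p = 0.221). The count of 1 lower with P. chinensis became 2 without Huh7 P. chinensis replicate 3 or Huh7 control replicate 1, and 3 without replicate 2 of Huh7 with P. umbellatus. The count of 0 with B. chinense, where edgeR gave 1 at an unadjusted p below 0.05, became 1 without A549 B. chinense replicate 1 or that same Huh7 library.

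By role, all 8 genes of metabolism, redox and organelles tested in both lines had a higher response in A549 with each herb, with median differences of 1.17, 1.22 and 1.09 in the herb order used above. Of the 6 repair and damage genes, 5, 5 and 4 had a higher response in A549, and of the 7 feedback genes 5, 5 and 3. Of the 10 growth control genes it was 7, 5 and 6. Of the 5 RNA and other genes it was ZMAT3 and RPS27L with each herb. Some P. umbellatus counts moved without the Huh7 library of that herb that stood apart. ASCC3 of the repair genes and CCNG1 and FBXO22 of the feedback genes then also had a higher response in A549. PHLDA3 of the growth control genes then did not pass the test.

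**Figure D4:**
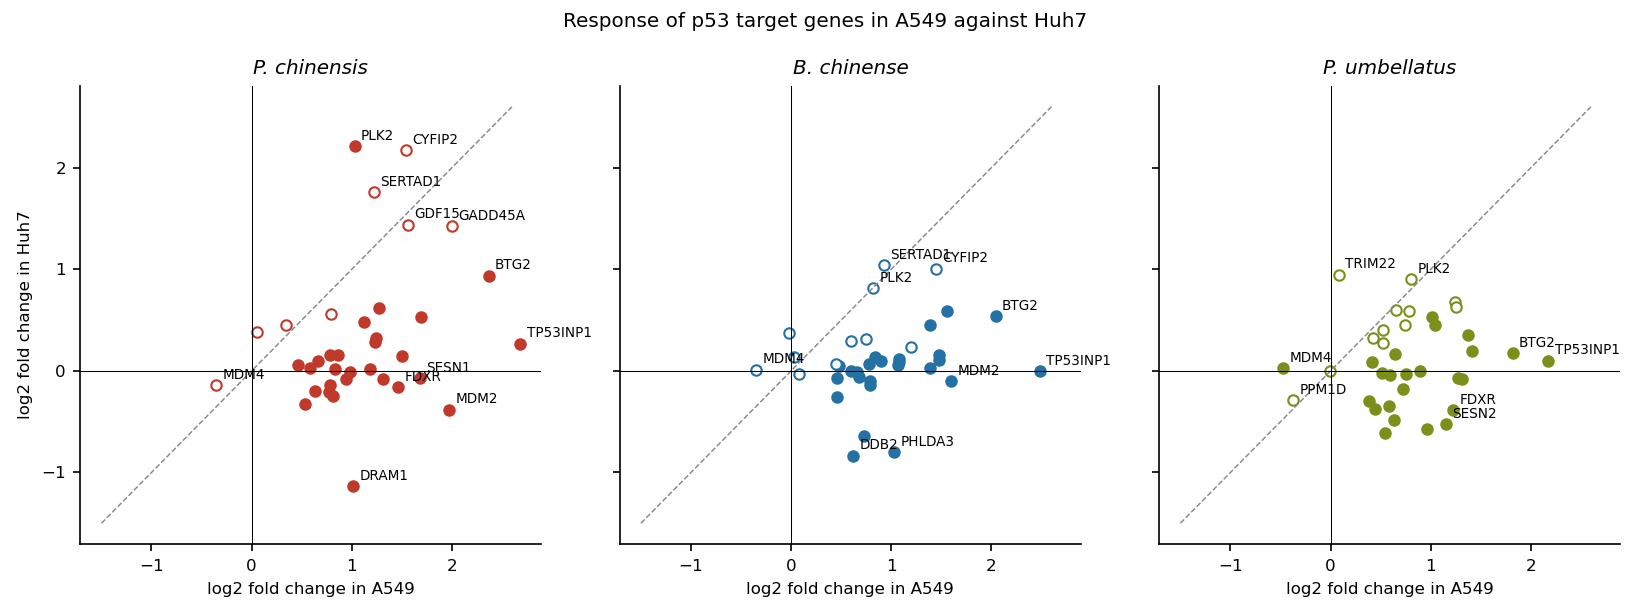
Log2 fold change of the p53 target genes in Huh7 cells (vertical axis) against that in A549 cells (horizontal axis), with 1 panel per herb and 1 point per gene tested in both lines. Filled points passed the test of the difference between the lines at an adjusted p below 0.05, open points did not, and the dashed line marks equal changes. Most points lie below the dashed line, with TP53INP1 furthest right in each panel, MDM2 and DRAM1 low with P. chinensis, and PLK2 above the line with P. chinensis.

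TP53INP1 had the largest difference with each herb, 2.47 ± 0.14, 2.53 ± 0.14 and 2.16 ± 0.14 in the same herb order (adjusted p = 1.17e-10, 5.29e-10 and 4.51e-09). MDM2 differed by 2.41 ± 0.10, 1.74 ± 0.10 and 1.30 ± 0.10 (adjusted p = 1.86e-12, 6.63e-10 and 2.26e-08). DRAM1 differed by 2.197 ± 0.13, 1.41 ± 0.13 and 1.202 ± 0.13 (adjusted p = 1.89e-10, 3.94e-07 and 1.04e-06). BTG2 and SESN2, called up-regulated in Huh7 with P. chinensis, still differed, BTG2 by 1.49, 1.55 and 1.73 and SESN2 by 1.22, 1.40 and 1.76. For P. umbellatus the differences without replicate 2 of Huh7 were 2.12 for TP53INP1, 1.372 for MDM2, 1.22 for DRAM1, 1.57 for BTG2 and 1.49 for SESN2, each past the threshold.

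AEN differed by 0.90 with P. umbellatus (adjusted p = 1.34e-04, and 0.69 without replicate 2), a call that ended with the GC and length offset (0.225, adjusted p = 0.12). PHLDA3 (chr1:201464278-201469237, minus strand) differed by 1.83 ± 0.46 with B. chinense (adjusted p = 0.0102), but it was at 0 to 17 counts in every Huh7 library. In A549 it went from 45.3, 61.3 and 53.5 CPM in control to 107, 114 and 116 with B. chinense, and in Huh7 from 0.25, 0.81 and 0.71 to 0.42, 0.09 and 0.34. Without Huh7 B. chinense replicate 2 or Huh7 control replicate 3 its call was lost (1.53 and 1.64, adjusted p = 0.058 and 0.0595).

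PLK2 differed by -1.13 ± 0.13 with P. chinensis (adjusted p = 2.00e-06), with a larger rise in Huh7, and by 0.045 and -0.016 with the other herbs. In A549 it went from 161, 192 and 169 CPM in control to 349, 340.1 and 399 with P. chinensis. The genes whose response did not pass the test of a difference with P. chinensis were CYFIP2 (-0.525), SERTAD1 (-0.48), TRIM22 (-0.27), MDM4 (-0.16), PPM1D, GDF15 (0.18), ANKRA2 (0.30) and GADD45A (0.64). With B. chinense they were 11, namely CYFIP2, SUSD6, FBXW7, TRIM22, PLK2, ANKRA2, PPM1D, PLK3, AEN, SERTAD1 and MDM4. With P. umbellatus they were 12, namely KITLG, CYFIP2, FBXW7, ASCC3, CCNG1, GADD45A, TRIM22, PLK2, ANKRA2, FBXO22, PPM1D and SERTAD1. Leaving out the Huh7 library of P. umbellatus that stood apart changed this list. ASCC3 (0.301, adjusted p = 0.00366), CCNG1 (0.299, adjusted p = 0.0252) and FBXO22 (0.367, adjusted p = 0.034) then passed the test. PHLDA3 then did not pass (1.188, adjusted p = 0.0678).

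Comparing the calls of each line, those up-regulated in both with P. chinensis were GADD45A, TP53I3, TIGAR, SESN2, BTG2, PLK2, GDF15, SERTAD1 and CYFIP2. With B. chinense they were PLK2 and SERTAD1. With P. umbellatus they were CCNG1, FBXO22, ASCC3, GADD45A, TIGAR, PLK2, KITLG, ZMAT3 and ANKRA2. Opposite directions were called for MDM2 and DRAM1 with P. chinensis, for DRAM1 with B. chinense, and for AEN, SESN2 and DRAM1 with P. umbellatus. The share of all genes called in both lines, in the same or opposite directions, was not counted.

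The levels in control cells also differed between the lines. Of 36 genes, 17 were higher and 8 lower in A549 control cells than in Huh7 control cells, against 33.8% and 34.9% of the 12924 genes tested. CYFIP2 was at 73.6, 76.8 and 74.0 CPM in A549 control and, as given above, below 1 CPM in Huh7, a log2 difference of 7.78 ± 0.22 (adjusted p = 2.48e-18). PHLDA3 differed by 6.18 ± 0.20 (adjusted p = 3.80e-17). PLK2 was higher in A549 by 3.79, FDXR by 3.28, DDB2 by 3.03, TP53I3 by 2.40 (a 5.30-fold difference) and CMBL by 1.92, and the groups did not overlap for any of these 5 genes.

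SESN2 (-1.73), DRAM1 (-1.71), KITLG (-1.45), TP53INP1 (-1.34), FBXW7 (-1.13), GADD45A (-0.90), NINJ1 (-0.58) and XPC (-0.42) were lower in A549 control cells. The levels of MDM2 (-0.14 ± 0.07, adjusted p = 0.0853), BTG2 (0.21 ± 0.10, adjusted p = 0.074) and GDF15 (-0.016 ± 0.16, adjusted p = 0.937) did not pass the test. For TP53INP1 and DRAM1 the treated A549 libraries with P. chinensis stood above the Huh7 libraries with P. chinensis, though their control libraries stood below.

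**Figure D5:**
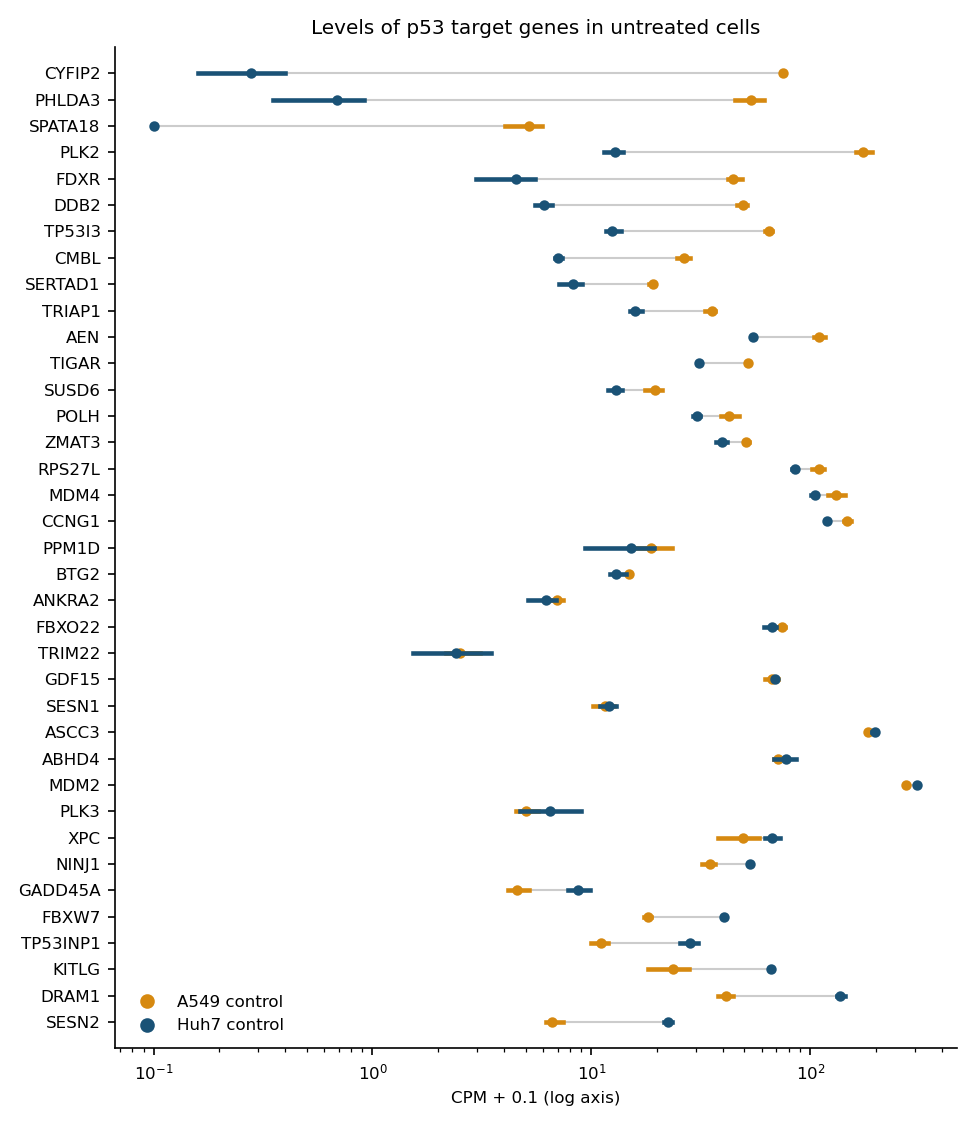
Level of the 37 p53 target genes in the control cells of each line, on a log axis of CPM + 0.1. Points are the mean of 3 control libraries (orange A549, blue Huh7), thick bars the range from the lowest to the highest library, and grey lines join the lines. CYFIP2, PHLDA3 and SPATA18 lie furthest apart with higher levels in A549, and SESN2 and DRAM1 are the genes furthest apart with higher levels in Huh7.

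The herbs were also compared with each other in A549, in the fit of all 12 A549 libraries. The mean level fell from P. chinensis through B. chinense to P. umbellatus for 27 of the 37 genes, and was highest with P. chinensis for 33. This order was not counted over all genes, so it cannot be called particular to the p53 target genes. With P. chinensis against B. chinense, MDM2 (0.37 ± 0.06, adjusted p = 0.00665) and BTG2 (0.325 ± 0.07, adjusted p = 0.0333) were higher and none was lower, against 0.447% and 1.0% of all genes tested. This count of 2 became 1 without P. chinensis replicate 1 or 3 or without any B. chinense replicate, and 0 in a fit of the 6 libraries compared.

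With P. chinensis against P. umbellatus, 14 of 37 were higher and none lower (median difference 0.29), against 0.814% and 2.19% of all genes. They were MDM2 (0.56, adjusted p = 5.72e-04), BTG2 (0.55), SESN2 (0.54), TP53INP1 (0.51), SERTAD1 (0.48), FBXO22 (0.42), SESN1 (0.41), DRAM1 (0.38), TP53I3 (0.38), POLH (0.36), TRIAP1 (0.34), ZMAT3 (0.30), CYFIP2 (0.29) and RPS27L (0.26). The count of 14 became 9 without P. chinensis replicate 2 or P. umbellatus replicate 1, 6 without P. chinensis replicate 3 or P. umbellatus replicate 2, and 5 without P. umbellatus replicate 3. With B. chinense against P. umbellatus none passed edgeR's test in either direction (median difference 0.12), against 0.0220% and 0.0293% of all genes. At an unadjusted p below 0.05, 9 were higher and 0 lower, and DESeq2 called 2 higher.

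Other genes of the p53 pathway were read from lists chosen in the same way. CDKN1A, the p21 inhibitor of cyclin-dependent kinases, was at 67.5, 75.4 and 92.9 CPM in A549 control and at 480.1, 452 and 473 with P. chinensis, at 432, 438 and 425 with B. chinense, and at 375, 380.0 and 380.4 with P. umbellatus. The groups did not overlap, and the rises were 5.81-fold, 5.33-fold and 4.59-fold (log2 fold change 2.54 ± 0.08, 2.41 ± 0.08 and 2.199 ± 0.08, adjusted p = 5.51e-11, 2.71e-10 and 8.73e-10). In Huh7 it was at 15.1, 10.7 and 12.7 CPM in control and at 21.2, 19.4 and 21.0 with P. chinensis, a rise by 0.73 ± 0.17 (adjusted p = 0.0088) that did not pass without control replicate 2 (0.60, adjusted p = 0.0541). The rise passed without replicate 2 of P. umbellatus in the shared fit (0.726, adjusted p = 0.00166).

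Of 18 regulators and partners of p53, which include CDKN1A, 16 were tested in A549. With P. chinensis 2 rose and 4 fell (median log2 fold change -0.185), with B. chinense 2 and 4, then 2 and 3 with P. umbellatus. Beside CDKN1A the kinase HIPK2 rose (0.28, 0.55 and 0.68), and those that fell with P. chinensis were the checkpoint kinases CHEK1 (-0.83) and CHEK2 (-0.905), RPL5 (-0.17) and TP63 (-1.145). In Huh7 the counts over 18 genes were 2 and 5, 0 and 0, and 1 and 2. Of 17 p53 targets in cell death tested, 13 rose and 1 fell in A549 with P. chinensis, 10 and 1 with B. chinense, then 9 and 1 with P. umbellatus, with BBC3 at 2.01, 2.09 and 1.61, FAS at 1.25, 0.85 and 0.93, and SIVA1 at -0.73, -0.48 and -0.76. In Huh7 the counts were 1 and 0, 0 and 0, and 3 and 4. For both lists, the shares of all genes up and down in A549 were 15.8% and 17.1%, 13.1% and 15.0%, and 13.4% and 14.8%. In Huh7 they were 10.5% and 10.5%, 0.519% and 0.757%, and 19.3% and 17.8%.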

How the data were processed

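RNA of 24 libraries was sequenced after removal of ribosomal RNA. The authors estimated counts with kallisto on GRCh38.p13 transcripts and deposited gene-level estimated counts that are whole and not normalized. They kept protein-coding genes with an average above 5. The values were used as deposited, and 0 columns were left out. Symbols and positions came from GENCODE on GRCh38. In R 4.3.3, genes with a mean count above 5 in a line were normalized by TMM and fitted with edgeR 4.0.16 (quasi-likelihood, prior count 2, 12 libraries per line, a coefficient per group, two-sided, Benjamini-Hochberg over all genes tested). Differences between the lines and between their controls came from 1 fit of all 24 libraries. The standard error is the log2 fold change over the root of F. CPM values are TMM-normalized over all libraries. The members and lists were chosen with earlier results of these data known.

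Values per library are given for MDM2, CDKN1A, the 3 members with the largest called change per line and herb and per difference between lines, and members called in opposite directions. A further gene of this rule is not reported here, and was left out of the list of p53 regulators. PLK2 and MDM4, among the differences between lines, were singled out after their values were seen.

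On simulated data with a log2 change of 1 in 200 genes, edgeR found 174 in A549 with P. chinensis (10 false calls), 151 in Huh7 with P. chinensis (12 false calls) and 139 for the difference between the lines (6 false calls). At a log2 change of 0.5 it found 98, 40 and 34. The changed genes were drawn from the better-counted genes and no other gene changed. The baseline of a gene was its mean over all libraries of the fit. These numbers therefore do not describe genes with low counts. DESeq2 1.42.0, other normalizations, other filters, a fit of the groups compared, the replicate block and leaving out single libraries were alternatives. The GC and length offset and the fit without replicate 2 of Huh7 with P. umbellatus were chosen after the data were seen. Samples were not paired by replicate number in the main fits. The correlation of same-numbered deviations ran from -0.094 to 0.07 in A549 and from -0.072 to 0.114 in Huh7. Of 18 pairs in Huh7, 1 lay above 0.1. These correlations cannot show whether same-numbered samples shared a culture or batch.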

Additional observations from a re-analysis of the deposited data

Results flagged for a closer look

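Each result here was a response that differed between A549 and Huh7 by a test of the difference itself, given as the log2 fold change in A549 minus that in Huh7. With P. chinensis, 28 of 36 p53 target genes differed (19.6% of all genes tested), TP53INP1 by 2.47, MDM2 by 2.41, DRAM1 by 2.2 and PLK2 by -1.13. With B. chinense, 25 differed (11.6% of all genes), TP53INP1 by 2.53, PHLDA3 by 1.83, MDM2 by 1.74 and DRAM1 by 1.41. With P. umbellatus, 24 differed (34.4% of all genes), TP53INP1 by 2.16, SESN2 by 1.76, BTG2 by 1.73, DRAM1 by 1.2, AEN by 0.90 and MDM4 by -0.42. MDM4 and PLK2 are named as the exceptions in direction. The differences with P. umbellatus rest on Huh7 libraries of which replicate 2 stood apart. Without it they were 2.12 for TP53INP1, 1.49 for SESN2, 1.57 for BTG2, 1.22 for DRAM1, 0.69 for AEN and -0.556 for MDM4. With the GC and length offset the differences of AEN (0.225, adjusted p = 0.12) and MDM4 (-0.236, adjusted p = 0.221) did not pass.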

How the results depend on the processing

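Among the counts of p53 target genes called, 365 values under the alternatives stayed within 1.5 times the count reported and 45 did not. In A549 each herb against control kept its counts within this limit throughout. The Huh7 count up-regulated with P. chinensis (9) was 15 with the GC and length offset, 14 in a fit of the groups compared and 5 to 13 with 1 library left out, and the count down-regulated (2) was 4, 5 and 2 to 5. With B. chinense, 2 up-regulated became 4 with the offset, 4 in the fit of the groups compared and 0 to 4. With P. umbellatus, 9 up-regulated and 3 down-regulated became 2 and 1 in the fit of the groups compared and 4 to 10 and 1 to 4 with 1 library left out. In A549, P. chinensis against B. chinense gave 1 with the replicate block, 0 in the fit of the groups compared and 1 to 2, P. chinensis against P. umbellatus gave 9 with the replicate block and 5 to 10, and B. chinense against P. umbellatus gave 2 with DESeq2. The block changed no other count by over 1.5 times. Lower responses in A549 were 3 with P. chinensis under DESeq2, the offset and the fit of the groups compared (1 to 3 with 1 library left out), 1 with B. chinense in the fit of the groups compared (0 to 1), and 0 with P. umbellatus under the offset. The cause of these shifts was not tested.

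Of the values of named genes, 2207 stayed on the same side of the threshold, 90 lost and 2 gained a call, and 7 changed sign. PPM1D in A549 ran from -0.093 to 0.55 with P. chinensis, and with B. chinense was 0.028 under upper quartile scaling and -0.388 to 0.22 with 1 library left out. With the offset, MDM2 and AEN in Huh7 with P. umbellatus became -0.031 and 0.24. The depth and 3 replicates limit low genes such as CYFIP2 and PHLDA3 in Huh7.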
